A study of Mus musculus with 6 samples.

Results

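This report describes 44 interferon-stimulated genes in mouse liver, taken by gene symbol from a table of 45777 genes. All 44 symbols had a row of their own, and all 44 were among the 16197 genes tested, so none was lost to the filter on low counts. RNA came from whole liver of C57BL/6 mice aged 10 weeks, with no treatment named in the labels. The WT group held 3 libraries from mice with both Pak4 alleles floxed (Pak4 flox/flox), that is, flanked by sites for Cre recombinase. The Pak4_KO group held 3 libraries from mice with the same floxed alleles and Alb-Cre, a transgene in which the albumin promoter drives Cre, so that deletion is aimed at hepatocytes and leaves other liver cells with Pak4. Both groups therefore carry the floxed alleles, and the WT labels list no Cre. The labels do not number the animals, and a p-value here reflects only how much these libraries vary, which may be technical.

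Interferons are secreted signals of infection. Type I interferons bind the receptor pair IFNAR1 and IFNAR2, whose kinases JAK1 and TYK2 phosphorylate STAT proteins, STAT2 among them, and these join IRF9 to form a complex that binds the interferon-stimulated response element (ISRE) of target genes. Interferon-γ acts through IFNGR1 and IFNGR2, JAK1 and JAK2, and STAT dimers that bind a different element, the gamma-activated site (GAS). The target genes encode antiviral enzymes, GTPases that attack the vacuoles of intracellular microbes, sensors of foreign nucleic acid and the pathway's own regulators. Liver cells of many types express them at a low level without infection. In whole tissue, fewer cells of a type and less RNA per cell cannot be told apart.

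The response element itself can be read in the promoters of many members, and a few are shown here because the results below turn on these genes or their families. RefSeq promoter entries (build GRCm38.p6) matched 33 of the 44 members. Over the 250 bases before the transcription start, 20 of these 33 genes (60.6%) held the ISRE letters, GAAA followed by any 2 bases and then GAAA, on either strand, against 936 of 27025 genes (3.46%) with an entry. The GAS letters TTCNNNGAA, which read the same on both strands, were in 8 of 33 members (24.2%) and 2197 of 27025 genes (8.13%). The 2 motifs were searched separately, and overlapping matches of the same motif count as separate matches. Each line below gives the 120 bases just before the start, 5′ to 3′ in the direction of the gene, with ISRE matches in capitals.
Isg15 (chr4:156200819-156200938, minus strand): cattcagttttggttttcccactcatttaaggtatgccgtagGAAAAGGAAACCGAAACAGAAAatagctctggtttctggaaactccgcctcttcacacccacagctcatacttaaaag
Ifit1 (chr19:34640769-34640888, plus strand): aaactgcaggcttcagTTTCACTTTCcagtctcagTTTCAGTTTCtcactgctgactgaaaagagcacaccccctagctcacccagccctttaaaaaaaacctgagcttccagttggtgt
Irgm1 (chr11:48871421-48871540, minus strand): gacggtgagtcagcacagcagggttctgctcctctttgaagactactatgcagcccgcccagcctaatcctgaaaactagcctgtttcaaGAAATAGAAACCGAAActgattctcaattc
Tgtp1 (chr11:48992247-48992366, minus strand): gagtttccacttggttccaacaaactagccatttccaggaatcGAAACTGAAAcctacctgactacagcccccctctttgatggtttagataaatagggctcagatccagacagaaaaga
Tgtp2 (chr11:49064213-49064332, minus strand): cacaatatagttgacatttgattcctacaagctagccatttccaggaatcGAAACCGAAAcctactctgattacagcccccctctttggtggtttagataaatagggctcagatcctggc
Ifi208 (chr1:173673545-173673664, plus strand): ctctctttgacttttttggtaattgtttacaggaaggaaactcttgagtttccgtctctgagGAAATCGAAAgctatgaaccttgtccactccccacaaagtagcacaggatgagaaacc
Ifi209 (chr1:173630739-173630858, plus strand): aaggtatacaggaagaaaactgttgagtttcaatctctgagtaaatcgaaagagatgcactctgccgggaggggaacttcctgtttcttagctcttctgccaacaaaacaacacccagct

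Isg15 held 3 overlapping matches in this window, Ifit1 and Irgm1 held 2 each, and Tgtp1, Tgtp2 and Ifi208 held 1 each. The search found no match in the Ifi209 window, which says only that these letters are not there. By family, matches were found in 7 of 8 GTPase genes, 3 of 4 IFIT genes, 2 of 4 OAS genes and 1 of 4 transcription factor genes with an entry. The change between genotypes, described next, had a median log2 change of -0.18 over the 20 members with a match and -0.19 over the 13 without.

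Libraries held 39603272 to 52521400 reads. The members together took 0.212%, 0.161% and 0.168% of the reads in WT replicates 1, 2 and 3 and 0.163%, 0.164% and 0.130% in Pak4_KO replicates 1, 2 and 3. Alb, the defining hepatocyte gene, stood between 23248 and 38497 CPM (a gene's reads scaled to library size with TMM factors), which matches the labelled tissue. Pak4, the targeted gene, was at 5.93, 7.15 and 6.44 CPM in the WT libraries against 1.37, 2.24 and 1.90 CPM in the Pak4_KO libraries, without overlap, a log2 change of -1.82 (SE 0.24, edgeR adjusted p = 0.0169). Its adjusted p was 0.0562 without WT replicate 1, 0.0608 without WT replicate 2 and 0.0936 without Pak4_KO replicate 3.

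Of the 44 members, 1 rose and none fell in Pak4_KO liver at an adjusted p under 0.05 in the edgeR quasi-likelihood test. Among all 16197 tested genes, 0.265% rose and 0.204% fell. The member that rose was Ifi208. Lower values without a call were common: 41 of 44 members had a negative log2 fold change, against 49.3% of all tested genes, and the median over members was -0.16, against 0.004 over all tested genes. At an unadjusted p under 0.05, 4 members were lower (3.69% of all tested genes) and 1 was higher (4.51% of all). The 4 were Tgtp1, Irf7, Irgm1 and Ifi27. The DESeq2 Wald test called 1 member higher and 0 lower, where 1.08% and 0.982% of all genes it tested were called. With limma-voom 0 members were called in either direction, where 39 of all 16197 genes were higher and 29 lower. With limma-trend on TPM (the authors' values scaled to gene length and library size) 0 members were lower. On log2(TPM + 1) 0 were higher, where 41 of all 16197 genes were higher and 22 lower. On log2(TPM + 0.1) 1 was higher, where 63 of all were higher and 33 lower.

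**Figure D1:**
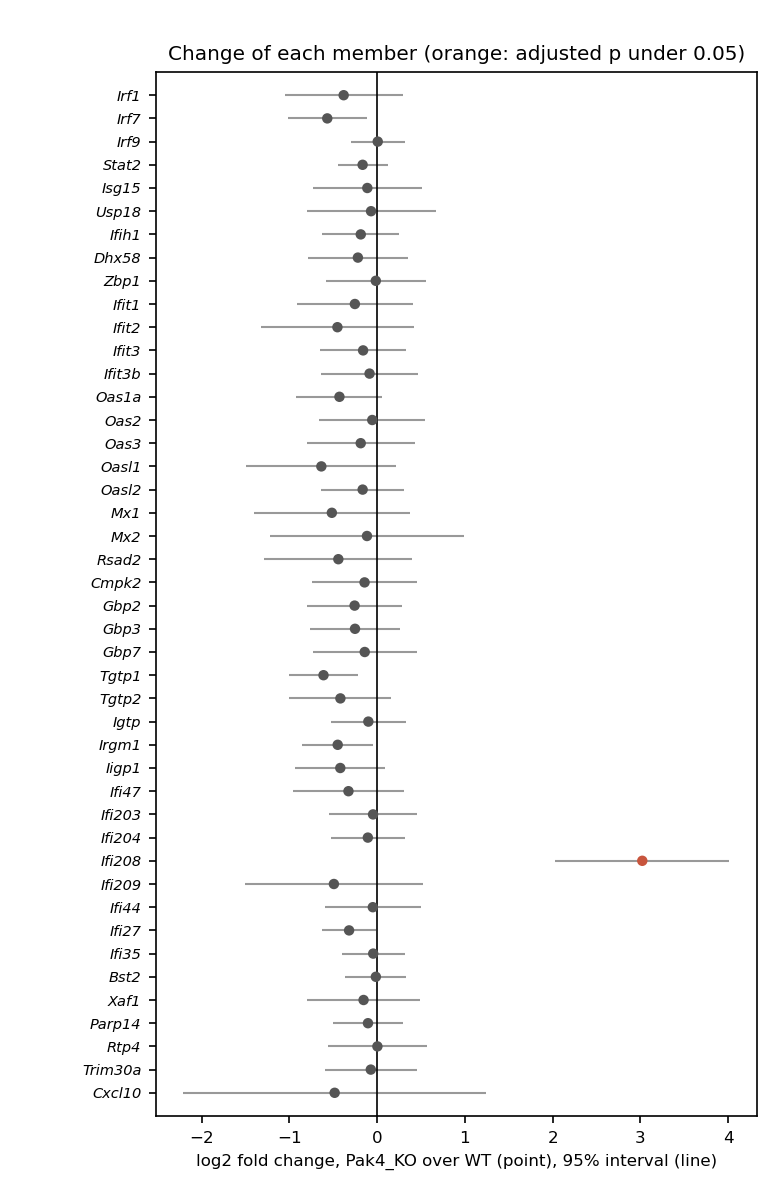
Log2 fold change of each of the 44 members, Pak4_KO over WT (x axis, points), with 95% intervals from the edgeR fit that are not adjusted for the number of genes (lines), by gene (y axis). Ifi208, at 3.02, is the only member with an adjusted p under 0.05, and 39 of the 44 intervals include 0.

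The size of change these libraries allow for can be read from the 95% intervals. The interval included 0 for 39 of 44 members and lay wholly above -1, meaning that a drop of 2-fold or more was outside it, for 34 of 44. The point estimate was smaller than its own standard error for 26 members. Cxcl10 had the widest interval, from -2.21 to 1.24, and Irf9, Ifi27, Stat2, Bst2 and Ifi35 were among those with narrow ones.

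The lower values in Pak4_KO followed particular libraries. WT replicate 1 held the highest value of the 6 libraries for 33 of 44 members, where it held the highest value for 14.4% of all tested genes. Pak4_KO replicate 3 held the lowest value for 25 members (17.4% of all tested genes) and WT replicate 3 for 17 members (18.3% of all). Measured as the median over members of log2 CPM relative to each gene's mean, the 3 WT libraries stood at 0.40, 0.09 and -0.22, and the 3 Pak4_KO libraries at 0.10, 0.02 and -0.43. The groups overlapped: WT replicate 3 lay below Pak4_KO replicates 1 and 2.

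**Figure D2:**
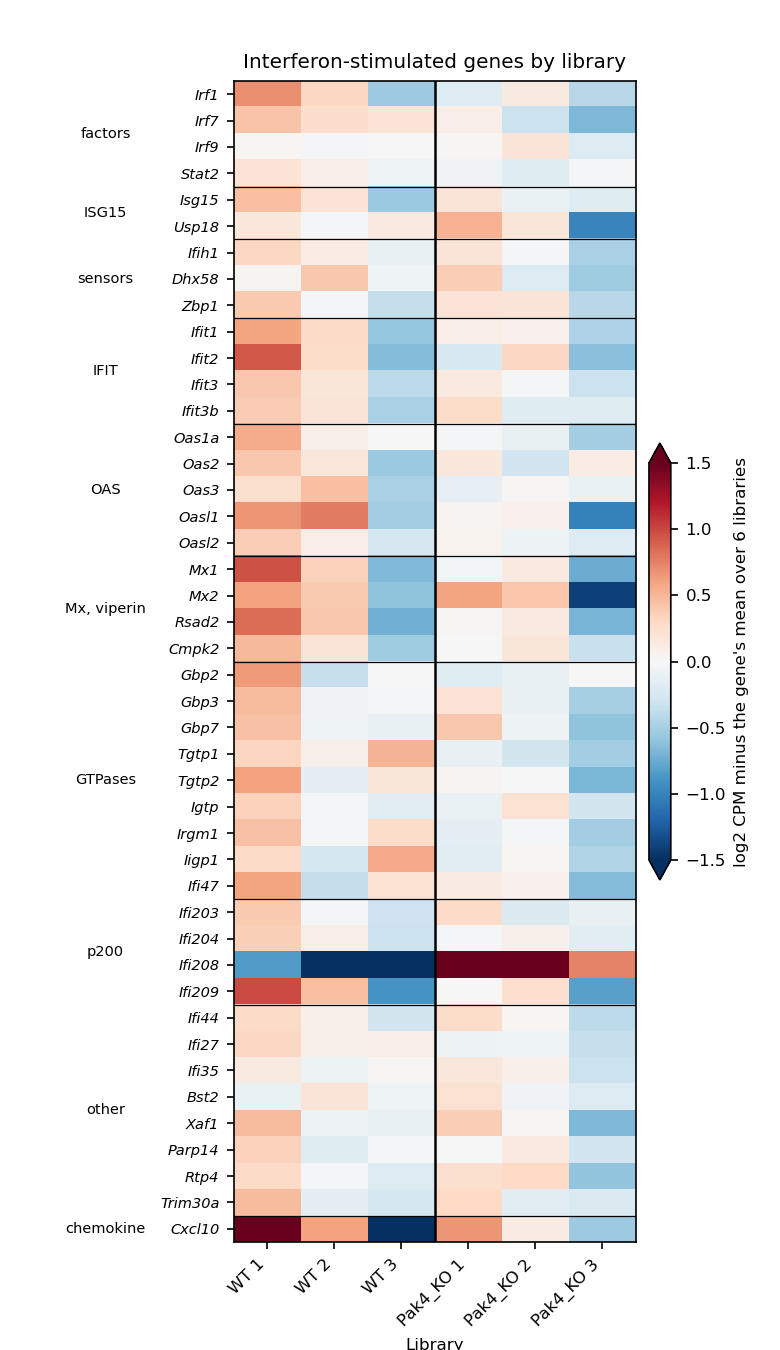
Level of each member (rows, grouped by role) in each of the 6 libraries (columns), as log2 CPM minus the gene's mean over the 6 libraries; red is higher and blue lower, and the colour scale ends at 1.5 in each direction. WT replicate 1 is the highest library for 33 of 44 members, WT replicate 3 and Pak4_KO replicate 3 are the lowest for 17 and 25, and Ifi208 is the only row higher in every Pak4_KO library.

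Some differences between single libraries of the same genotype were larger than the median log2 fold change between genotypes, -0.16. The latter compares groups of 3 libraries, so the measures are unlike. WT replicate 3 was lower than WT replicate 1 for 41 of 44 members, with a median difference of -0.60 on the log2 scale. Pak4_KO replicate 3 was lower than Pak4_KO replicate 1 for 41 of 44, with a median of -0.49. Pairs across genotypes went both ways. Pak4_KO replicate 3 was lower than WT replicate 1 for 43 of 44 members, with a median of -0.80, the widest of all pairs. Against WT replicate 3, by contrast, Pak4_KO replicate 1 was lower for only 9 of 44 members and higher by a median of 0.40. Within WT, the highest library exceeded the lowest by more than 2-fold for 12 of 44 members (27.3%), against 1407 of 12843 tested genes with a mean of at least 1 CPM (11.0%). Within Pak4_KO the same held for 8 members (18.2%) and 9.72% of those genes. The median ratio of highest to lowest was 1.64 for members and 1.31 for all such genes in WT, and 1.44 and 1.34 in Pak4_KO.

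Leaving out WT replicate 1 reduced the members with a negative log2 fold change from 41 to 24 of 44 and moved their median from -0.16 to -0.01. Leaving out Pak4_KO replicate 3 left 29 of 44 negative with a median of -0.07. Without any of the other 4 libraries, taken singly, 40 to 42 members were negative. Without WT replicate 3 the median was -0.31, and without Pak4_KO replicate 1 it was -0.35. The unit changed the count for all genes as well. On log2(TPM + 1) 30 of 44 were negative, where 36.9% of all tested genes were. On log2(TPM + 0.1) 29 of 44 were, against 36.8% of all. In the edgeR fit on counts, 49.3% of all tested genes were negative.

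**Figure D3:**
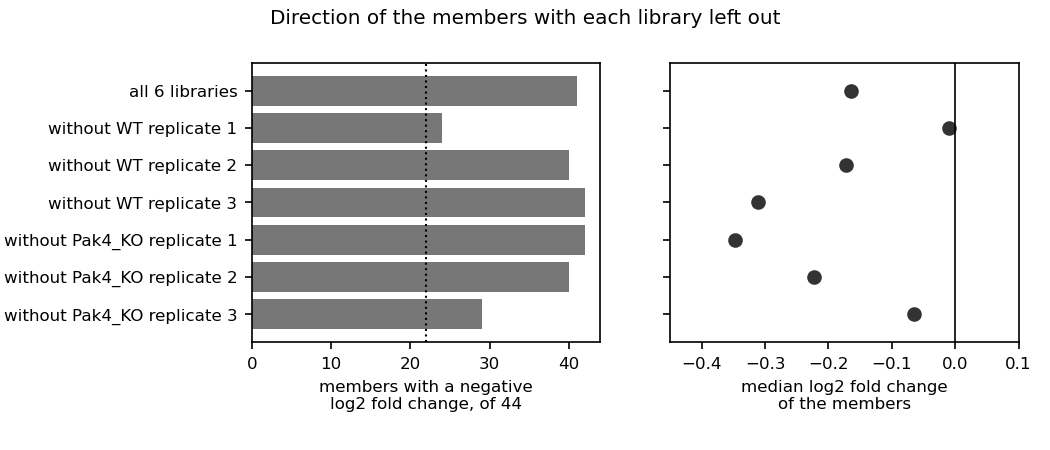
Left, number of the 44 members with a negative log2 fold change (bars; the dotted line marks 22 of 44) with all libraries and with each library left out; right, the median log2 fold change of the members in the same fits (points). Without WT replicate 1 the count drops to 24 and the median to -0.01, and without Pak4_KO replicate 3 to 29 and -0.07.

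Of the 4 transcription factor genes, 3 had negative values, with a median log2 fold change of -0.27 over the 4. Irf7, the amplifier of type I interferon induction, stood at 36.7, 32.8 and 31.6 CPM in WT and 29.3, 21.9 and 17.1 CPM in Pak4_KO. The groups did not overlap, as for 4 of the 44 members in the lower direction and 6.06% of all tested genes. The log2 fold change of Irf7 was -0.57 (SE 0.20, edgeR adjusted p = 0.465). Irf9, the DNA-binding partner of STAT2, was nearly level, at 45.8, 44.4 and 44.6 CPM in WT and 45.3, 51.3 and 38.9 CPM in Pak4_KO, with a log2 change of 0.01 (95% interval -0.30 to 0.31). Stat2 stood at 57.7, 53.6 and 47.7 CPM in WT and 48.2, 44.1 and 49.5 CPM in Pak4_KO, with overlap and a log2 change of -0.16 (interval -0.45 to 0.12). Irf1, a factor induced most strongly by interferon-γ, stood at 41.7, 31.9 and 17.5 CPM in WT and 22.5, 28.2 and 19.3 CPM in Pak4_KO, all of the latter inside the WT range.

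ISG15 is a ubiquitin-like protein that is attached to other proteins, and USP18 removes it and also restrains the type I receptor. Isg15 stood at 7.47, 6.27 and 3.70 CPM in WT and 6.23, 5.10 and 4.80 CPM in Pak4_KO, with all Pak4_KO values inside the WT range. Usp18 was even across WT (35.1, 31.1 and 34.7 CPM) and uneven across Pak4_KO (45.02, 35.5 and 15.8 CPM). Pak4_KO replicate 3 alone lay below WT, and without it the log2 fold change of Usp18 turned from -0.07 to 0.26. Of the nucleic acid sensors, Ifih1, which encodes the RNA sensor MDA5, stood at 71.3, 62.2 and 53.3 CPM in WT and 66.1, 57.0 and 41.1 CPM in Pak4_KO, with overlap. Dhx58, its regulator LGP2, and Zbp1, a sensor of Z-form nucleic acid, also overlapped, at 6.44 to 12.3 and 5.90 to 10.3 CPM over the 6 libraries.

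The IFIT proteins bind foreign RNA, and their 4 genes had a median log2 fold change of -0.21. Ifit3 stood at 46.3, 39.8 and 26.7 CPM in WT and 38.6, 34.4 and 28.1 CPM in Pak4_KO, and its near copy Ifit3b at 15.8, 13.9 and 8.71 CPM in WT and 14.7, 10.8 and 10.8 CPM in Pak4_KO. In all 4 IFIT genes WT replicate 1 was the highest of the 6 libraries and WT replicate 3 the lowest, with Pak4_KO in between. Ifit1 ran from 20.1 to 45.4 CPM and Ifit2 from 13.4 to 40.3 CPM within WT. Ifit3 and Ifit3b transcripts are 97.8% identical over 1700 aligned bases, so reads could be split between them; their summed counts had a log2 change of -0.14 (SE 0.22, edgeR adjusted p = 0.938).

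The OAS enzymes make the 2-5A signal that activates RNase L, and the OASL proteins are their relatives. All 5 genes had negative values, with a median log2 fold change of -0.19. Oas1a was lower in every Pak4_KO library (7.81, 7.28 and 5.56 CPM) than in every WT library (11.6, 8.38 and 7.87 CPM), though by a margin that is small beside the spread, with a log2 change of -0.43 (SE 0.21, adjusted p = 0.669 by edgeR). Summed with Oas1g, which is 97.5% identical over 1860 bases, it had one of -0.38 (SE 0.20, adjusted p = 0.702 by edgeR). Oasl1, a translational brake on Irf7, stood at 49.2, 53.0 and 21.7 CPM in WT and 31.9, 32.5 and 15.4 CPM in Pak4_KO, each group holding a low replicate 3. Oas2, Oas3 and Oasl2 were all under 10 CPM and overlapped.

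Mx proteins are dynamin-like GTPases against viruses, and Rsad2 encodes viperin, which makes a chain-terminating nucleotide and lies beside Cmpk2, its supplier of substrate. Classical inbred mouse strains carry defective Mx1 alleles, and the annotation lists both Mx1 and Mx2 as transcribed pseudogenes. The transcripts of both are therefore read here only as markers. The 4 genes, all negative, had a median log2 fold change of -0.29. Mx1 stood at 18.5, 12.1 and 6.06 CPM in WT and 9.34, 10.6 and 5.72 CPM in Pak4_KO. Rsad2 stood at 139.6, 104 and 47.3 CPM in WT and 79.4, 86.4 and 48.3 CPM in Pak4_KO. The WT range enclosed the Pak4_KO values for Rsad2, while for Mx1 Pak4_KO replicate 3 lay just below it. The log2 fold change of Rsad2 was -0.44 with all libraries (SE 0.37, edgeR adjusted p = 0.843) and -0.09 without WT replicate 1. Mx2 ranged 3.97-fold within Pak4_KO, from 9.70 to 38.5 CPM, and from 16.8 to 38.8 CPM in WT, and Cmpk2 ran from 9.34 to 18.9 CPM over the 6 libraries.

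The interferon-inducible GTPases include the lower member with the smallest unadjusted p-value, and all 9 had negative values, with a median log2 fold change of -0.33. Tgtp1, a GTPase of the IRG family, stood at 18.2, 15.4 and 20.7 CPM in WT and 13.5, 12.0 and 10.1 CPM in Pak4_KO, without overlap. Its log2 fold change was -0.61 (SE 0.17, edgeR adjusted p = 0.297), and between -0.71 and -0.50 with any single library left out. Tgtp2 stood at 18.8, 11.2 and 14.1 CPM in WT and 12.8, 12.5 and 7.70 CPM in Pak4_KO, with overlap. The 2 transcripts are 99.8% identical over 2811 bases, so their counts are uncertain one by one. Their sum averaged 32.9 ± 5.46 CPM in WT against 22.9 ± 4.48 in Pak4_KO (SD, n = 3 each), a log2 change of -0.52 (SE 0.19, edgeR adjusted p = 0.5002).

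Irgm1, a regulator of the IRG family, stood at 111, 79.8 and 98.5 CPM in WT and 74.7, 80.5 and 56.8 CPM in Pak4_KO, where replicate 2 reached just above the lowest WT library (log2 fold change -0.45, SE 0.18, edgeR adjusted p = 0.543). Iigp1, an IRG effector against intracellular parasites, was the most abundant member per length, averaging 296 ± 80.3 TPM in WT against 231 ± 21.0 in Pak4_KO (SD, n = 3 each). Its CPM were 595, 408 and 726 in WT and 435, 499.5 and 359.6 in Pak4_KO. Igtp and Ifi47 of the same family, and Gbp2, Gbp3 and Gbp7, guanylate-binding proteins that coat pathogen vacuoles, all overlapped between groups, the 5 ranging from 11.4 CPM (Gbp3) to 35.7 CPM (Ifi47 and Gbp7). WT replicate 2 was the lowest WT library for 7 of 9 GTPase genes, while WT replicate 3 was the lowest for 31 of all 44 members and WT replicate 2 for 12. WT replicate 3 was the highest WT library for 2 members, both of them GTPase genes, Tgtp1 and Iigp1.

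Ifi208 belongs to the p200 family, of which some proteins are DNA sensors. It had 27, 17 and 17 reads in WT and 210, 194 and 103 in Pak4_KO, or 0.681, 0.358 and 0.338 CPM against 4.95, 4.11 and 2.06 CPM. The lowest Pak4_KO library lay above the highest WT library, as for 7.35% of all tested genes. The log2 fold change was 3.02 (SE 0.43, 95% interval 2.03 to 4.01, edgeR adjusted p = 0.0272). The gene (NCBI gene 100033459) lies on chromosome 1 at 173673628 to 173698393 (GRCm38). Even in Pak4_KO it was the lowest member but one per length, at 1.59 ± 0.707 TPM (SD, n = 3), above only Oas3 at 1.13 ± 0.0662 TPM. The call held in 2 of the 6 fits without a library, those without WT replicate 1 or Pak4_KO replicate 3. It was lost without replicate 2 or 3 of WT and without replicate 1 or 2 of Pak4_KO. The log2 fold change was 2.76 to 3.39 over all 6 fits, and the highest adjusted p was 0.147. With all libraries, the call was also lost with limma-voom (adjusted p = 0.0662) and on log2(TPM + 1) (limma adjusted p = 0.0891).

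The closest annotated copy of Ifi208 is Ifi213, 96.3% identical over 92.1% of the Ifi208 transcript, at 173566280 to 173599348 on the same chromosome. Ifi213 stood at 12.3, 7.64 and 5.67 CPM in WT and 6.98, 6.77 and 5.80 CPM in Pak4_KO. Counts summed over both genes were 13.0, 7.997 and 6.004 CPM in WT and 11.9, 10.9 and 7.86 CPM in Pak4_KO, with overlap. The sum had a log2 change of 0.19 (SE 0.29, edgeR adjusted p = 0.942). Whether reads of one gene were assigned to the other in either genotype was not tested, and the Ifi208 value is uncertain on its own. The groups overlapped for the other p200 members, Ifi203, Ifi204 and Ifi209. Ifi204, a relative of the human DNA sensor IFI16, stood at 29.9, 25.0003 and 18.7 CPM in WT and 22.9, 24.6 and 20.9 CPM in Pak4_KO. Ifi209, the nearest upstream neighbour of Ifi208 among the members, ran from 4.29 to 15.7 CPM within WT. At a minimum of 90% identity over 50% of the transcript, 9 of 44 members had a close copy, among them Ifi204 with Ifi211 and Ifi209 with Ifi214, whose sums had log2 changes of -0.04 (SE 0.20) and -0.53 (SE 0.45).

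**Figure D4:**
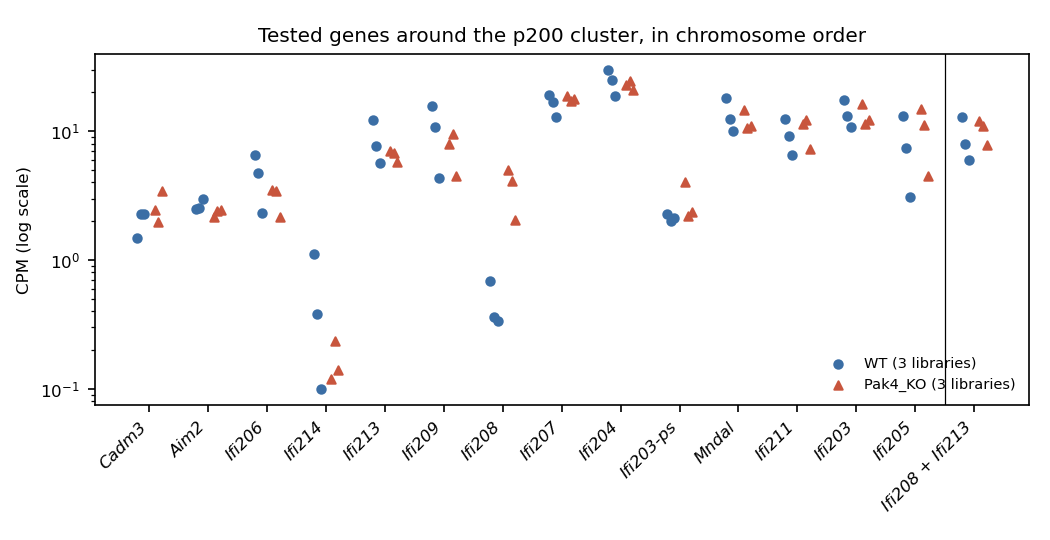
CPM of each tested gene in the p200 region of chromosome 1 (x axis, in chromosome order; y axis, log scale), with circles for the 3 WT and triangles for the 3 Pak4_KO libraries; the last column sums Ifi208 and Ifi213. Ifi208 lies below 0.7 CPM in WT and above 2 CPM in Pak4_KO, whereas the sum overlaps, at 6.004 to 13.0 CPM and 7.86 to 11.9 CPM.

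The 8 other effectors had a median log2 fold change of -0.06, with 7 negative. Ifi27, a small membrane protein, stood at 75.8, 64.1 and 65.0 CPM in WT and 57.8, 58.4 and 48.1 CPM in Pak4_KO, without overlap, with a log2 change of -0.32 (SE 0.13, edgeR adjusted p = 0.582). Its locus overlaps that of Ifi27l2a in the annotation. Bst2, or tetherin, which holds budding virus at the cell surface, was the second most abundant member per length, at 139 ± 13.2 TPM in WT and 146 ± 20.7 TPM in Pak4_KO (SD, n = 3 each). Its groups overlapped, as did those of Ifi35, Ifi44, Xaf1, Rtp4, Trim30a and Parp14, an ADP-ribosyltransferase. Ifi44, the lowest of these, ran from 3.82 to 6.08 CPM, Xaf1 from 5.46 to 12.1, Rtp4 from 12.5 to 23.2, Trim30a from 16.7 to 27.6 and Ifi35 from 22.2 to 31.1 CPM over the 6 libraries. Parp14 stood at 141, 97.6 and 108 CPM in WT and 109.6, 122 and 90.8 CPM in Pak4_KO. Cxcl10, the chemokine that draws T cells, varied 16.4-fold within WT, at 15.6, 7.89 and 0.954 CPM, and stood at 8.23, 5.67 and 3.56 CPM in Pak4_KO. Its direction turned with the test, from -0.48 in the edgeR fit to 0.23 with limma-voom.

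Interferon pathway genes outside the members were measured in a list of 102, of which 89 were tested. Of the 89, 57 were other interferon-induced genes, which lie downstream. The rest were 9 receptor and kinase genes, 14 sensing genes and 9 negative regulators, with 5, 10 and 4 negative. None was called by edgeR in either direction (0.469% of all tested genes were called). At an unadjusted p under 0.05, 0 were higher (4.51% of all tested genes) and 5 lower (3.69% of all). Their median log2 fold change was -0.09, with 56 of 89 negative. Of the 89, 6 were lower without overlap between groups (6.06% of all tested genes) and 0 higher (7.35% of all). The interferon genes themselves were nearly silent: of 12 ligands none was tested, 8 had no read in any library, and the other 4 had 21 reads in all, at most 7 in 1 library. The type I receptor chains overlapped, Ifnar1 with 37.6 ± 2.15 CPM in WT against 36.4 ± 1.61 in Pak4_KO, and Ifnar2 at 43.2 ± 1.99 and 43.4 ± 9.86 CPM (SD, n = 3 each). The interferon-γ receptor chains overlapped too, Ifngr1 at 18.1 to 23.8 CPM in WT and 18.4 to 25.7 CPM in Pak4_KO, and Ifngr2 at 13.5 to 18.6 and 12.8 to 14.1 CPM.

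Jak1, the kinase shared by both receptor types, was lower in every Pak4_KO library (150.2, 164 and 183 CPM) than in every WT library (219, 199 and 188 CPM), with a log2 change of -0.28 (SE 0.13, edgeR adjusted p = 0.644). Jak2 (26.5 to 47.0 CPM) and Tyk2 (7.70 to 14.3 CPM) overlapped. Of the sensing genes, Tlr9, the receptor for unmethylated DNA, averaged 0.946 ± 0.236 in WT and 0.5005 ± 0.0905 CPM in Pak4_KO. In the same order, Irf5 averaged 9.75 ± 2.08 and 6.60 ± 1.45 CPM, and Tlr3, the receptor for double-stranded RNA, at 3.30 ± 0.933 and 4.91 ± 0.830 CPM (SD, n = 3 each), none of the 3 called. The negative regulators split, Irf2 at -0.44 (SE 0.19), Pias4 at -0.17 (SE 0.18) and Socs3, an inhibitor of cytokine receptors, at 0.35 (SE 0.23) on the log2 fold change scale. Of 57 other interferon-induced genes tested, 37 were negative, and the smallest p-values belonged to the paired Apol9a (log2 fold change -0.78, SE 0.24) and Apol9b (-0.72, SE 0.26) and the chemokine Cxcl9 (-0.54, SE 0.27). Apol9a stood at 60.3, 53.2 and 44.2 CPM in WT and 37.4, 34.7 and 19.5 CPM in Pak4_KO, and neither it nor Apol9b overlapped between groups.

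No marker of any immune, endothelial or hepatocyte list was called by edgeR in either direction, and the smallest adjusted p was 0.137, in the neutrophil list. At an unadjusted p under 0.05, 6 of 8 neutrophil, 3 of 12 Kupffer cell and 2 of 9 T and NK cell markers were lower (3.69% of all tested genes). At the same limit, 2 of 8 endothelial and 1 of 4 plasmacytoid dendritic cell markers were higher (4.51% of all). Kupffer cell and macrophage markers were negative for 12 of 12 tested genes. Their summed levels did not overlap, at 531 to 677 CPM in WT and 420 to 521 CPM in Pak4_KO. Neutrophil markers were negative for 8 of 8, with a median log2 fold change of -0.73, and their sums overlapped, at 614 to 835 and 458 to 634 CPM. Lcn2, which other liver cells can also express, made up most of that sum, at 566 to 799 and 430.0 to 604 CPM, and had the smallest difference of the list (-0.43). T and NK cell markers were low, with 8 of 9 tested genes negative, and their sums were 12.3, 6.92 and 6.44 CPM in WT and 6.21, 5.36 and 4.08 CPM in Pak4_KO. WT replicate 1 was highest and Pak4_KO replicate 3 lowest for this sum. The Kupffer cell sum was highest in WT replicate 2 and lowest in Pak4_KO replicate 2. The neutrophil sum was highest in WT replicate 3 and lowest in Pak4_KO replicate 1. Markers of plasmacytoid dendritic cells, which in mice also express the member Bst2, summed to 11.4 to 13.9 CPM in WT and 12.7 to 14.0 CPM in Pak4_KO, of which Irf8 was the larger part. Of the 4 tested, 3 were positive, with a median log2 fold change of 0.72 over the 4, and 2, Siglech and Ly6d, did not overlap between groups. Endothelial markers were positive for 8 of 8, with a median of 0.12, 2 of them without overlap, and their sums were 223 to 283 and 232 to 329 CPM. Of all tested genes, 7.35% were higher without overlap and 6.06% lower. Lower without overlap were 4 of 8 neutrophil, 3 of 9 T and NK cell and 2 of 12 Kupffer cell markers. Hepatocyte markers without overlap numbered 1 in each direction. B cell markers summed to at most 2.45 CPM. No marker of these lists was at 0 in every library. The part of these cell types in the member values was not tested.

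**Figure D5:**
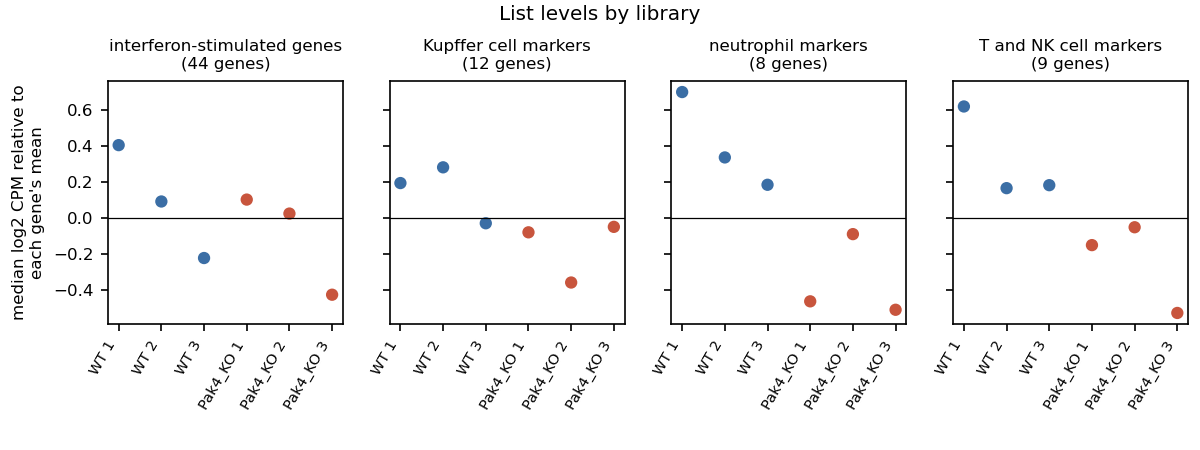
Median log2 CPM relative to each gene's mean over 6 libraries (y axis) for the 44 members and for 3 marker lists (panels), by library (x axis), blue for WT and orange for Pak4_KO. The members overlap between genotypes, with WT replicate 3 at -0.22 below Pak4_KO replicates 1 and 2 at 0.10 and 0.02. None of the 3 marker lists shown overlaps, each lower in Pak4_KO. Of the lists not shown, plasmacytoid dendritic cell markers were higher without overlap, at -0.33 to -0.05 in WT and 0.20 to 0.43 in Pak4_KO. Endothelial markers were too, narrowly, at -0.33 to 0.05 and 0.06 to 0.31. The hepatocyte and B cell lists overlapped. The Kupffer cell list is separated only narrowly, with WT replicate 3 at -0.03 and Pak4_KO replicate 3 at -0.05.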

How the data were processed

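Per the labels' protocols, Illumina TruSeq Stranded mRNA libraries were made from whole-liver RNA. Tools named in the submitters' processing notes are bcl2fastq 2.20.0, FastQC 0.11.7, StringTie 2.1.3b, Bowtie2 2.3.4.1 and HISAT2 2.1.0, with build mm10. For annotation release, strand setting and multi-mapped reads the sources used here give nothing. The values used are the read counts per gene that the authors deposited, unnormalized per the file headers. FPKM deposited by the authors were not used. TPM deposited by the authors gave levels per length and 2 alternatives.

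Counts were fitted with edgeR 4.0.16 (R 4.3.3): filterByExpr, TMM factors, glmQLFit and glmQLFTest, two-sided, Benjamini-Hochberg over 16197 genes. The SE is the log2 fold change, unsigned, over the root of the F statistic, and 95% intervals use the test's moderated degrees of freedom. On simulated data with 16197 genes for this comparison, 2.55% of genes changed 1.5-fold, 39.9% changed 2-fold and 80.4% changed 4-fold were recovered, and 8.24% of calls were false. Members, lists and tests were chosen with earlier results of these data known. Values per library are given for Pak4, called members, the 10 members with the smallest p, the most abundant of each role, 2 copy pairs and the transcription factors, with further members named after their values were seen; outside the members, values per library, means, ranges or log2 fold changes are given for 6 fixed signalling genes (another is not reported here) and the 3 smallest p-values per list. Median levels use log2 CPM with a prior count of 2. Alternatives used DESeq2 1.42.0 and limma 3.58.1. Copies were found with blastn 2.17.0 against GENCODE M21 (matches of 90% identity that cover 50% of a transcript, as minimum). Of the 44 members, 15 overlap another RefSeq gene.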

Additional observations from a re-analysis of the deposited data

How the results depend on the processing

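The 11 alternative scalings, filters, tests, units and the block kept 0 members called lower, where 22 to 159 of all tested genes were. Of the 44 members 29 to 42 were negative, against 36.8% to 50.4% of all tested genes, with medians of -0.18 to -0.09. The number called higher was 0 with limma-voom and with log2(TPM + 1), where Ifi208 had log2 fold changes of 2.97 (adjusted p = 0.0662) and 1.11 (adjusted p = 0.0891), and with counts summed over Ifi208 and Ifi213 its 0.19 was not called. Leaving out each library in turn gave 0 to 1 members called higher, 24 to 42 negative (24 without WT replicate 1), and Pak4 at -1.99 to -1.65 with adjusted p from 0.0388 to 0.0936. In these 6 fits the median over members ran from -0.35 to -0.01.

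Some values turned sign, most of them near 0 but also Cxcl10, reported at -0.48; the cause was not tested. With limma-voom, Irf9 was -0.0016, Cxcl10 0.23 and Ifnar2 -0.020. On log2(TPM + 1), Ifit3b was 0.040, Parp14 0.0057 and Cxcl10 0.094; on log2(TPM + 0.1), Ifit3b was 0.046, Ifi204 0.0013, Parp14 0.0064 and Cxcl10 0.23. Ifnar1 was 0.0049 by library size, and Ifnar2 -0.00017 with DESeq2 size factors and -0.00021 with its Wald test. With single libraries left out, the ranges were -0.35 to 0.0069 for Ifit3, -0.30 to 0.083 for Ifit3b, -0.27 to 0.051 for Ifi204, -0.21 to 0.051 for Parp14, -1.01 to 0.39 for Cxcl10, -0.094 to 0.10 for Irf9, -0.39 to 0.26 for Usp18, -0.087 to 0.0013 for Ifnar1, -0.18 to 0.15 for Ifnar2, -0.041 to 0.22 for Ifngr1 and -0.31 to 0.13 for Tyk2.

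With the replicate block, 1 member was called higher, 42 of 44 were negative with a median of -0.18, and Pak4 was at -1.84 (adjusted p = 0.0258). Irf9 was then -0.0013, Cxcl10 0.051 and Ifnar2 -0.017. Correlations of deviations between samples of the same number were 0.07, -0.20 and 0.15, so the numbers are not read as pairs, and not every sample correlated best with its own number. Summing near copies was planned for Tgtp1 with Tgtp2 and Ifit3 with Ifit3b, and the other sums and the pathway genes' alternatives were added after seeing the data. With 3 libraries a group, changes of 2-fold or less are mostly out of reach. In the simulated data, drawn from all tested genes, 39.9% of genes changed 2-fold and 2.55% changed 1.5-fold were recovered. The Ifi208 value rests on 61 reads in WT.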
